A study of Homo sapiens with 6 samples.

Results

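The comparison set the clones of 1 sequence subfamily of secreted Frizzled-related proteins (SFRPs), SFRP1, SFRP2 and SFRP5, against the clones of the other, SFRP3 and SFRP4. The arrays were chosen by their titles, which name the SFRP of each clone, and made up 5 of the 6 arrays of the series, with the mock array left out of every difference. All 6 arrays measured RNA of A549, an established human lung adenocarcinoma cell line, after 24 hours in medium containing Wnt3a, and the 5 clones were stable lines labelled as expressing an SFRP. The SFRP1/2/5 set held an SFRP1, an SFRP2 and an SFRP5 clone. The SFRP3/4 set held an SFRP3 and an SFRP4 clone. The mock cells had the same medium and time. The titles also carry the prefix HM20, which is not explained in the sources used here.

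SFRPs are secreted proteins with a cysteine-rich domain like that of the Frizzled receptors and a netrin-like domain. They bind Wnt ligands or Frizzled receptors outside the cell and are known mostly as antagonists of Wnt signaling, though both weaker and stronger signaling have been described. By sequence SFRP1, SFRP2 and SFRP5 are close to one another, and SFRP3, encoded by FRZB, and SFRP4 are more distant from them.

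Each clone was 1 line and 1 array, so neither replicate error nor the spread between clones of the same SFRP was measured. The spread within a set is therefore one between SFRP genes as well as lines, and an effect of an SFRP and a property of the 1 line that carried it cannot be told apart. An exact permutation test of 3 arrays against 2 has 10 arrangements and a smallest two-sided p of 0.1. The arrays had median intensities of 599.6 to 689.0, and their 10th percentiles, used here as the mark of a dim probe, ran from 53.2 on the SFRP3 array to 91.0 on the SFRP1 array. The SFRP4 array had 131 probes under an intensity of 10 and the SFRP3 array 77, against 0, 0 and 1 on the SFRP1, SFRP2 and SFRP5 arrays and 0 on the mock array. In bulk RNA, fewer cells with a transcript and less of it per cell cannot be told apart.

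The probes for the SFRP genes did not follow the clone labels. The SFRP1 probe read 88063, 72334 and 63703 in the SFRP1, SFRP2 and SFRP5 clones, 110461 and 37206 in the SFRP3 and SFRP4 clones and 58836 in mock cells. The FRZB probe, for SFRP3, read 512.0, 479.6 and 666.2 in the SFRP1, SFRP2 and SFRP5 clones, 436.4 and 733.8 in the SFRP3 and SFRP4 clones and 475.5 in mock cells. The probes for SFRP2, SFRP4 and SFRP5 stayed between 41.3 and 98.9 on all 6 arrays, at about the 10th percentile of the arrays. None of the 5 genes was highest by its own probe in its own clone, so these probes did not show the labelled transgenes. No source used here says whether the probes lie in the part of the transcript that a transgene carries.

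The 6 lists of markers of other cell types had medians from -0.33 for 5 kept fibroblast genes to 0.26 for 9 kept endothelial genes. Limma called no member, but it called only 1 of all 11889 kept genes, or 0.00841%, so this says little about them. AGR2, in the airway list, was the only separated member, where 0.101% of all kept genes were separated higher in SFRP1/2/5 and 0.126% higher in SFRP3/4. Of 20 blood cell genes listed and 18 measured, 9 were kept. The defining leukocyte phosphatase PTPRC was below the 10th percentile of every array. LCP1, an actin bundler of leukocytes also found in tumor cells, read 202.6, 248.9 and 200.7 in the SFRP1, SFRP2 and SFRP5 clones, 1035 and 476.9 in the SFRP3 and SFRP4 clones and 349.6 in mock cells. CD68, a lysosomal protein of macrophages, read 6628, 5732 and 4584 in the SFRP1, SFRP2 and SFRP5 clones, 4125 and 1270.8 in the SFRP3 and SFRP4 clones and 4249.7 in mock cells. These 2 lay apart in opposite directions, with differences of -1.69 and 1.29. The surfactant gene SFTPC of alveolar type II cells read 108.7, 88.3 and 107.4 in the SFRP1, SFRP2 and SFRP5 clones, 77.9 and 101.1 in the SFRP3 and SFRP4 clones and 104.3 in mock cells. KRT8, an epithelial keratin, read 462.1, 944.8 and 2119 in the SFRP1, SFRP2 and SFRP5 clones, 1214 and 455.0 in the SFRP3 and SFRP4 clones and 890.9 in mock cells, with the sets overlapping.

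Of 18365 genes with a probe of their own, 11889 reached the table's median intensity of 651.0 in at least 1 of the 5 clones and were kept. Differences are the mean log2(intensity + 1) of the SFRP1/2/5 clones minus that of the SFRP3/4 clones. Over all kept genes the median difference was 0.03, and 53% of the differences were above 0. Genes whose values did not overlap between the sets numbered 1247 higher in the SFRP1/2/5 clones, or 10.5% of kept genes, and 1064 higher in the SFRP3/4 clones, or 8.95%. For 249 genes, or 2.09%, the SFRP1/2/5 mean was above the SFRP3/4 mean by 1 log2 unit (a doubling) or more, and for 297, or 2.5%, it was as far below. Of these, 126 and 110 still overlapped between the sets.

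A stricter measure was the separation, the lowest value of the higher set minus the highest value of the lower set. Separation reached 1 log2 unit for 12 genes higher in the SFRP1/2/5 clones, or 0.101% of kept genes, and for 15 higher in the SFRP3/4 clones, or 0.126%. Under quantile normalization this split was 9 and 22, and under median centring 9 and 23. With genes kept by their mean over the 5 clones it was 8 and 6. The 13 genes lost there, EID2, COL6A3 and IL32 among them, had passed the main filter only through the set where they were high. Some genes that stayed had also passed it only in that way, CLDN10, SOX4, MDGA2, SLC38A9, RSAD2 and VASH2 among them. Arrays within a set were not closer throughout than arrays of different sets. The SFRP3 and SFRP4 arrays differed at least 2-fold for 1990 kept genes and pairs within SFRP1/2/5 for 948 to 1921, against 781 to 2433 for pairs across the sets.

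**Figure D1:**
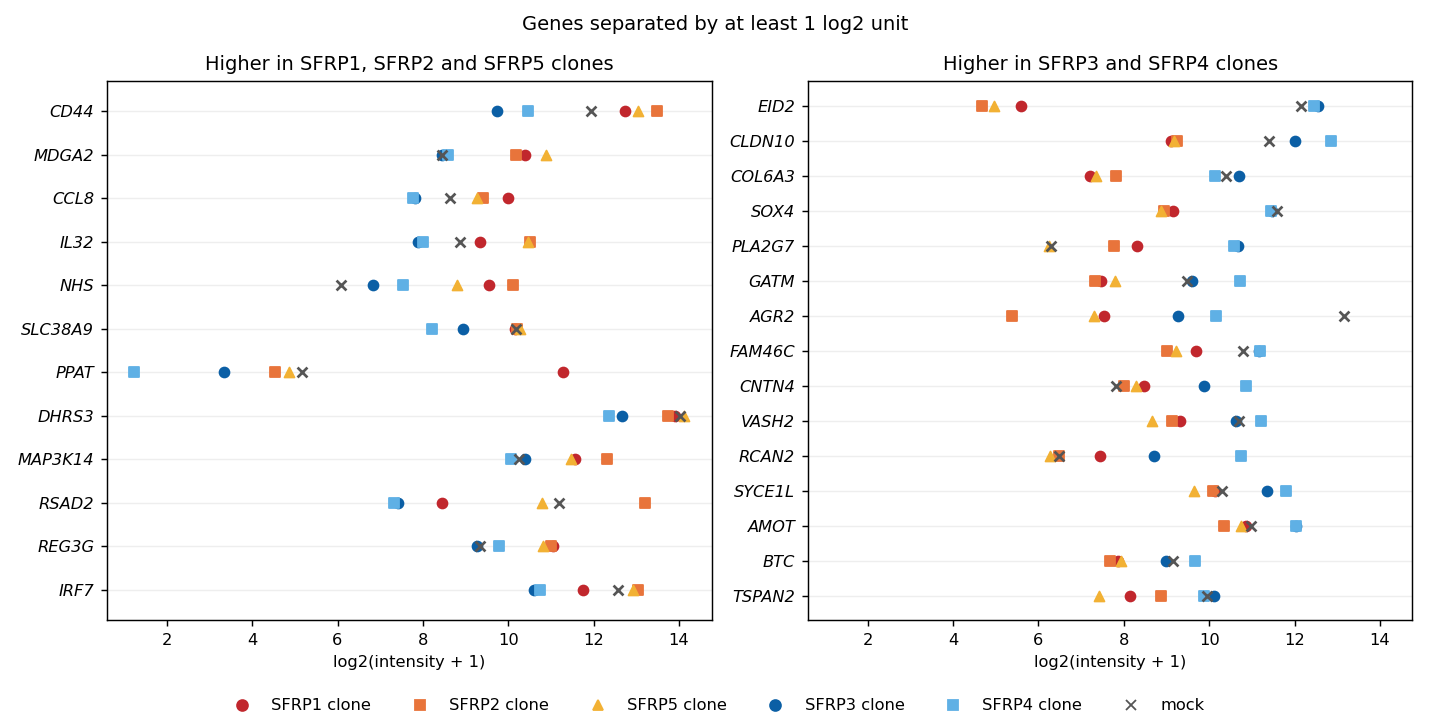
Each row is a gene whose sets were separated by at least 1 log2 unit, and each point is the log2(intensity + 1) of 1 array, with red, orange and yellow for SFRP1, SFRP2 and SFRP5 clones, blue and light blue for SFRP3 and SFRP4 clones and a cross for mock cells. The 12 genes on the left are higher in the SFRP1/2/5 clones and the 15 on the right are higher in the SFRP3/4 clones, and the mock value lies among, between or outside the sets depending on the gene.

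Limma, fitted over all kept genes, called 1 gene at an adjusted p under 0.05, or 0.00841% of those tested, while 541 genes, or 4.55%, had an unadjusted p under 0.05. The called gene was EID2, an inhibitor of EP300-dependent differentiation. It read 47.0, 24.7 and 30.4 in the SFRP1, SFRP2 and SFRP5 clones, 5993 and 5585 in the SFRP3 and SFRP4 clones and 4529.7 in mock cells. The first 3 values were below the 10th percentile of their arrays, so the single EID2 probe was dim in 1 set and bright in the other and in mock cells. Its limma difference was -7.42 (SE 0.36, adjusted p = 0.000403), and -6.17 after raising dim values to the 10th percentile. The EID2 call was lost when genes were kept by their mean over the 5 clones, because EID2 then fell below the filter.

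Each of the 10 genes with the largest mean difference higher in SFRP1/2/5 had a clone value under its array's 10th percentile, as had 20 of the 249. So had 20 of the 297 higher in SFRP3/4, EID2 and POLD3 among them. POLD3 read 47.0, 31.0 and 3484 in the SFRP1, SFRP2 and SFRP5 clones, 4580 and 3896 in the SFRP3 and SFRP4 clones and 29.1 in mock cells. Dim values beside bright ones were thus not confined to the SFRP4 array or to 1 direction. PSMB4, a proteasome subunit, read 113727, 89422 and 126011 in the SFRP1, SFRP2 and SFRP5 clones, against 102008 in the SFRP3 clone and -20.5 in the SFRP4 clone, with 100459 in mock cells. Only the SFRP4 array stood apart there, and the same held for RPS28, a ribosomal protein with 196149, 211770 and 268644 in the SFRP1, SFRP2 and SFRP5 clones, 249134 in the SFRP3 clone, 1.37 in the SFRP4 clone and 236629 in mock cells. PPAT, an enzyme of purine synthesis, passed the separation rule with 2501, 22.3 and 28.2 in the SFRP1, SFRP2 and SFRP5 clones against 9.17 and 1.37 in the SFRP3 and SFRP4 clones. All of these but the SFRP1 value were below their array's 10th percentile, and the PPAT difference of 4.60 became 2.0 when dim values were raised to it.

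**Figure D2:**
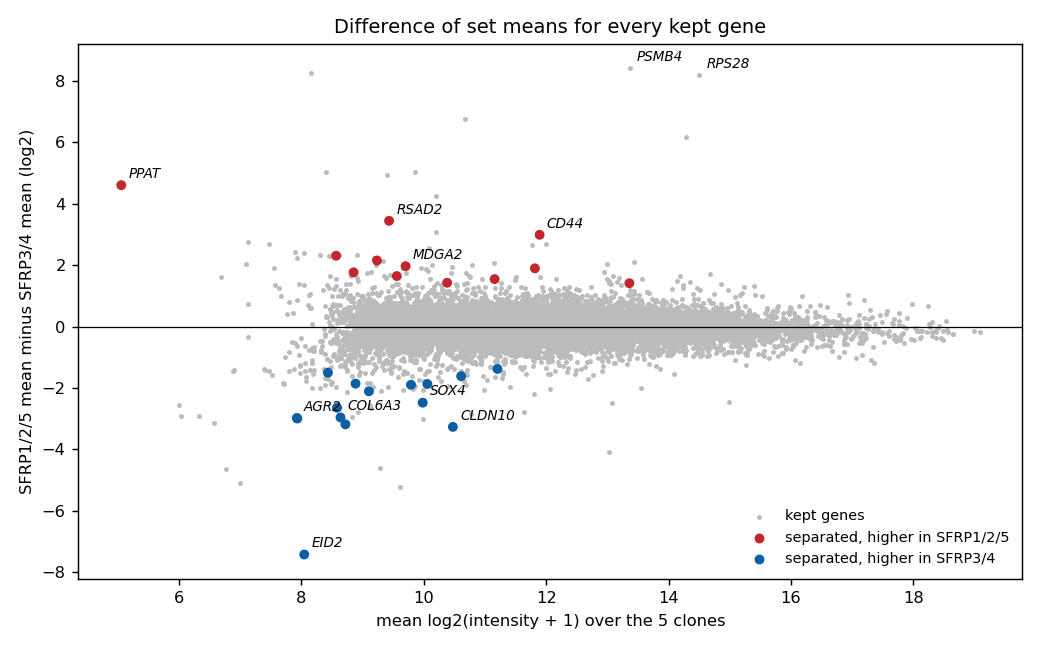
Each point is a kept gene, with its mean log2(intensity + 1) over the 5 clones on the x axis and the SFRP1/2/5 mean minus the SFRP3/4 mean on the y axis. Genes separated by at least 1 log2 unit are red where higher in SFRP1/2/5 and blue where higher in SFRP3/4, and the grey points for PSMB4 and RPS28 at the top are set by the SFRP4 array alone.

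Among Wnt target and stem cell marker genes, CD44 and SOX4 were separated in opposite directions. CD44, the hyaluronan receptor used as a cancer stem cell marker, read 6857, 11356 and 8469 in the SFRP1, SFRP2 and SFRP5 clones, 846.3 and 1419.7 in the SFRP3 and SFRP4 clones and 3945 in mock cells. The sets were far apart with mock cells between them, at 13.09 ± 0.37 (SD, n = 3 clones) and 10.10 ± 0.53 (SD, n = 2 clones) on the log2 scale, a difference of 2.99 (limma SE 0.37, adjusted p = 0.108). A second, dimmer CD44 probe differed by 0.66 in the same direction. SOX4, a transcription factor of progenitor and tumor cells, read 566.8, 493.1 and 468.7 in the SFRP1, SFRP2 and SFRP5 clones, 2857 and 2807 in the SFRP3 and SFRP4 clones and 3087 in mock cells. The SFRP3 and SFRP4 clones were close to mock cells for SOX4 and the other clones 5.57-fold lower, a difference of -2.48 (limma SE 0.29, adjusted p = 0.0906).

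The Wnt target list as a whole, CD44 and SOX4 included, had no shared direction. Of its 32 kept members, 7 were higher in SFRP1/2/5 without overlap and 4 were higher in SFRP3/4, against 10.5% and 8.95% of all kept genes. The median difference was 0.00, and limma called none of them. CCND1, the cyclin of the G1 phase, read 31362, 65025 and 57674 in the SFRP1, SFRP2 and SFRP5 clones, 29428 and 19352 in the SFRP3 and SFRP4 clones and 34269 in mock cells. It was chosen after its values were seen, and its sets were only 0.09 apart. NRCAM, a neuronal adhesion molecule, read 2563, 19124 and 1659 in the SFRP1, SFRP2 and SFRP5 clones, 25635 and 23194 in the SFRP3 and SFRP4 clones and 25271 in mock cells, so that the SFRP2 clone lay near the SFRP3/4 set. AXIN2, a feedback inhibitor often used as a Wnt readout, was not kept, with values from 175.8 to 339.2 on the 6 arrays.

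Limma called no antagonist or receptor of the pathway, which says little because it called 0.00841% of all kept genes. Of 13 kept antagonist genes, 0 were higher in SFRP1/2/5 without overlap and 3 were higher in SFRP3/4, against 10.5% and 8.95% of all kept genes, with a median of -0.16. WIF1, a secreted Wnt-binding inhibitor, read 241.8, 151.1 and 135.6 in the SFRP1, SFRP2 and SFRP5 clones, 374.1 and 748.8 in the SFRP3 and SFRP4 clones and 176.7 in mock cells. RNF43, a ubiquitin ligase that removes Frizzled receptors from the surface, read 431.7, 379.3 and 454.6 in the SFRP1, SFRP2 and SFRP5 clones, 703.2 and 733.8 in the SFRP3 and SFRP4 clones and 284.8 in mock cells. The third was ZNRF3, the related ligase, with a difference of -0.74. WIF1 and RNF43 passed the filter only through the SFRP3/4 set, where they were high, so their counts are no support for that direction. DKK1 and APCDD1L, also antagonists, went the other way by 1.57 and 0.85 but overlapped between the sets. DKK1 passed the filter only through the SFRP1/2/5 set. Of the 13 differences, 5 were above 0. Of 38 kept receptor and transducer genes, 4 were higher in SFRP1/2/5 and 6 in SFRP3/4 without overlap, beside the same shares of all kept genes, with a median of 0.04.

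The separated members of the Wnt target, junction and cytokine lists were CD44, SOX4, CLDN10, IL32 and CCL8. CCL8, whose window held no match to the NF-kappaB consensus, is left out below, and the promoter windows of the others are shown. They run from 250 bases before to 50 after the RefSeq start, on GRCh38.p14 and on the plus strand, and CD44 is at chr11:35138921-35139220, SOX4 at chr6:21593501-21593800, CLDN10 at chr13:95433505-95433804 and IL32 at chr16:3065153-3065452. Capitals mark matches, on either strand, to the TCF/LEF core CTTTGA in CLDN10 and to the NF-kappaB consensus in IL32.
CD44: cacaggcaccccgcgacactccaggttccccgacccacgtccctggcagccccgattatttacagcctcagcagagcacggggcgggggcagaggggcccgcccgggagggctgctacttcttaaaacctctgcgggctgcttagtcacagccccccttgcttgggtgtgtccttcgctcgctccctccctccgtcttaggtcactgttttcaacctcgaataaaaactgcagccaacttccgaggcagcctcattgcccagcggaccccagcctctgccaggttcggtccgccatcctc
SOX4: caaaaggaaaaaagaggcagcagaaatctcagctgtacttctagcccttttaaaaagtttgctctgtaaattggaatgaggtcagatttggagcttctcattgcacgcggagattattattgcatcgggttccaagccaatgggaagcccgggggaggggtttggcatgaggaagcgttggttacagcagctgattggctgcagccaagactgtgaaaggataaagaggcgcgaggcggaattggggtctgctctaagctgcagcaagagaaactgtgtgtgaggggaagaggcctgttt
CLDN10: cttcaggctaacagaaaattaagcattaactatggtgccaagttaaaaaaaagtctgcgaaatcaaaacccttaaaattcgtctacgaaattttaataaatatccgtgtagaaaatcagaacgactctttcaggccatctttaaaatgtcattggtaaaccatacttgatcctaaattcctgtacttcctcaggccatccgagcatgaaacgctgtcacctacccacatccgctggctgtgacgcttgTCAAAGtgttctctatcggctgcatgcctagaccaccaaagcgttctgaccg
IL32: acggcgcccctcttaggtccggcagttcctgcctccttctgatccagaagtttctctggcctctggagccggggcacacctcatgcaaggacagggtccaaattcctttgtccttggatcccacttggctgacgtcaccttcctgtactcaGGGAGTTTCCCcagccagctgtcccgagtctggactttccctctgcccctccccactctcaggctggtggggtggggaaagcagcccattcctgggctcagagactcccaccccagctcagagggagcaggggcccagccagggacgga
The core CTTTGA was in 12.9% of 35116 promoter windows and in 8.9% of the 9039 windows of kept genes, and the NF-kappaB consensus was in 11.3% and 13.0%. CD44 and SOX4 held no CTTTGA in these windows. Of the separated genes with a window, the core was in 1 of 11 higher in SFRP1/2/5, MDGA2, and 1 of 15 higher in SFRP3/4, CLDN10. The NF-kappaB consensus was in 1 of 11, IL32, and 1 of 15, BTC. A match describes these letters alone.

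Several cell surface and matrix genes were among the 15 higher in the SFRP3/4 clones. CLDN10, a tight junction claudin, read 548.2, 602.0 and 575.1 in the SFRP1, SFRP2 and SFRP5 clones, 4158 and 7365 in the SFRP3 and SFRP4 clones and 2716 in mock cells. The 3 clones of the first set were nearly equal and both others above mock, a difference of -3.27 (limma SE 0.34, adjusted p = 0.079). COL6A3, a chain of microfibrillar collagen VI, read 145.9, 224.3 and 162.8 in the SFRP1, SFRP2 and SFRP5 clones, 1659 and 1122 in the SFRP3 and SFRP4 clones and 1342 in mock cells. Mock cells lay within the SFRP3/4 values for COL6A3, but a second, dimmer probe of the gene differed by 0.00. CNTN4, a contactin of neurons, read 357.3, 257.7 and 310.3 in the SFRP1, SFRP2 and SFRP5 clones, 937.9 and 1858 in the SFRP3 and SFRP4 clones and 225.5 in mock cells. VASH2, a vasohibin that trims tubulin, read 632.4, 560.7 and 403.6 in the SFRP1, SFRP2 and SFRP5 clones, 1589 and 2384 in the SFRP3 and SFRP4 clones and 1659.6 in mock cells. The sets were apart for both, with mock cells below both sets for CNTN4, and second probes differed by -2.20 and -1.26 beside -2.11 and -1.89 for the first.

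Other surface and secreted proteins among these 15 were the EGF-family ligand betacellulin (BTC), the tetraspanin TSPAN2 and PLA2G7, a phospholipase that hydrolyses platelet-activating factor. BTC read 233.0, 205.2 and 245.2 in the SFRP1, SFRP2 and SFRP5 clones, 507.0 and 818.5 in the SFRP3 and SFRP4 clones and 566.7 in mock cells. TSPAN2 read 281.9, 464.4 and 170.4 in the SFRP1, SFRP2 and SFRP5 clones, 1100.2 and 948.3 in the SFRP3 and SFRP4 clones and 991.5 in mock cells. PLA2G7 read 317.2, 218.7 and 74.9 in the SFRP1, SFRP2 and SFRP5 clones, 1642 and 1525 in the SFRP3 and SFRP4 clones and 78.0 in mock cells. BTC in mock cells lay within the SFRP3/4 values, and PLA2G7 in mock cells lay within those of SFRP1/2/5. AGR2, a disulfide isomerase of secretory epithelium, read 184.0, 40.6 and 156.2 in the SFRP1, SFRP2 and SFRP5 clones, 615.2 and 1137 in the SFRP3 and SFRP4 clones and 9089 in mock cells, so that all 5 clones were below mock.

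The rest of the 15 held metabolic and regulatory genes. GATM, the first enzyme of creatine synthesis, read 175.2, 158.3 and 222.4 in the SFRP1, SFRP2 and SFRP5 clones, 775.7 and 1699.9 in the SFRP3 and SFRP4 clones and 709.5 in mock cells. AMOT, a scaffold of the Hippo pathway, read 1856, 1297 and 1727 in the SFRP1, SFRP2 and SFRP5 clones, 4204 and 4164 in the SFRP3 and SFRP4 clones and 2028 in mock cells. Both were separated, by 1.80 and 1.17, and limma called neither. RCAN2, a calcineurin regulator, read 174.3, 89.1 and 76.0 in the SFRP1, SFRP2 and SFRP5 clones, 419.0 and 1715 in the SFRP3 and SFRP4 clones and 88.3 in mock cells. FAM46C, now TENT5C, a poly(A) polymerase, read 827.2, 517.7 and 594.6 in the SFRP1, SFRP2 and SFRP5 clones, 2294 and 2343 in the SFRP3 and SFRP4 clones and 1778 in mock cells. SYCE1L read 1128, 1096 and 805.1 in the SFRP1, SFRP2 and SFRP5 clones, 2626 and 3559.6 in the SFRP3 and SFRP4 clones and 1260.2 in mock cells. The differences of these 3 were -2.99, -1.87 and -1.61, and the SFRP3 and SFRP4 clones differed from each other most for RCAN2.

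Matrix genes beyond these were uneven. Of 37 kept matrix glycoproteins and proteoglycans, 2 had set means 1 log2 unit or more apart with SFRP1/2/5 higher and 9 with SFRP3/4 higher, against 2.09% and 2.5% of all kept genes. Yet 7 were higher in SFRP1/2/5 without overlap and 4 in SFRP3/4, against 10.5% and 8.95% of all kept genes, and the median was -0.03. Fibronectin, FN1, read 45611, 4774 and 20460.0 in the SFRP1, SFRP2 and SFRP5 clones, 122894 and 67437 in the SFRP3 and SFRP4 clones and 204995 in mock cells. The sets did not overlap for FN1, but a second, far dimmer FN1 probe differed by 1.55 the other way. Osteopontin, SPP1, read 796.9, 39071 and 628.3 in the SFRP1, SFRP2 and SFRP5 clones, 70113 and 29644 in the SFRP3 and SFRP4 clones and 120483 in mock cells, and overlapped through the SFRP2 clone. Its difference was -4.08 with all 5 clones (limma adjusted p = 0.985) and -6.01 without the SFRP2 clone. Limma called SPP1 without that clone, but leaving out the clone that overlapped makes the call no support for a set difference. SDC1, a syndecan, fell just short of the separation rule, at 0.97, with 12773, 17540 and 13421 in the SFRP1, SFRP2 and SFRP5 clones, 6511 and 1875 in the SFRP3 and SFRP4 clones and 27457 in mock cells.

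Of 22 kept junction and polarity genes, 3 were higher in each set without overlap, a share near the 10.5% and 8.95% of all kept genes, with a median of 0.39 that became -0.003 without the SFRP4 clone. OCLN, occludin, read 1701, 1968 and 2594 in the SFRP1, SFRP2 and SFRP5 clones, 946.2 and 893.7 in the SFRP3 and SFRP4 clones and 1171 in mock cells. CDH1, E-cadherin, read 384.7, 439.0 and 614.1 in the SFRP1, SFRP2 and SFRP5 clones, 2178 and 688.7 in the SFRP3 and SFRP4 clones and 1306 in mock cells. Occludin and E-cadherin, both of epithelial junctions, lay on opposite sides, though limma called neither.

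Of 11 kept keratins, 3 were higher in SFRP1/2/5 without overlap and 0 in SFRP3/4, against 10.5% and 8.95% of all kept genes, with a median of 0.33. KRT7 read 298.6, 769.8 and 1252 in the SFRP1, SFRP2 and SFRP5 clones, 150.4 and 118.9 in the SFRP3 and SFRP4 clones and 874.0 in mock cells. KRT80 read 1602, 791.3 and 2002 in the SFRP1, SFRP2 and SFRP5 clones, 331.0 and 400.4 in the SFRP3 and SFRP4 clones and 764.0 in mock cells. Both were separated by 0.98, just under the rule. These keratins passed the filter only through the SFRP1/2/5 set, where they were high, so their counts are no support for that direction. KRT81 differed by 1.15. The keratin median ranged from 0.06 without the SFRP4 clone to 0.89 without the SFRP1 clone.

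Interferon-stimulated genes had higher set means in the SFRP1/2/5 clones for 30 of 33 kept members, where 53% of all kept genes did. These are antiviral genes switched on after type I interferon. Of the 33, 16 differed by at least 1 log2 unit, all higher in SFRP1/2/5, where 2.09% of all kept genes were that much higher in SFRP1/2/5 and 2.5% in SFRP3/4. For 9 the sets did not overlap, all higher in SFRP1/2/5, against 10.5% and 8.95% of all kept genes. RSAD2, OAS1 and IFI27 passed the filter only through the SFRP1/2/5 set, where they were high, so their counts are no support for that direction. The list median was 0.99, against 0.03 over all kept genes. Limma called no member, as it called only EID2 of all kept genes. The median was 0.58 without the SFRP2 clone and 1.52 without the SFRP4 clone. The members' values moved with single clones, since the list's median log2 level was 10.51, 12.45 and 11.17 in the SFRP1, SFRP2 and SFRP5 clones, 9.88 and 10.82 in the SFRP3 and SFRP4 clones and 12.45 in mock cells. By that median the SFRP1 clone was below the SFRP4 clone, and the SFRP2 clone was level with mock cells.

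RSAD2, an antiviral radical enzyme (viperin), read 348.5, 9416 and 1758 in the SFRP1, SFRP2 and SFRP5 clones, 169.6 and 158.5 in the SFRP3 and SFRP4 clones and 2327 in mock cells. IRF7, the factor that amplifies interferon production, read 3449.9, 8436 and 7783 in the SFRP1, SFRP2 and SFRP5 clones, 1563 and 1714 in the SFRP3 and SFRP4 clones and 6068 in mock cells. These 2 were separated by 1.03 and 1.01, and mock cells lay within the SFRP1/2/5 values of both. Neither passed the separation rule under quantile normalization or with a pseudocount of 50, and RSAD2 also failed it under median centring. IFI6, a mitochondrial survival protein, differed by 2.09 and IFI27 by 2.76, with the SFRP3 value of IFI27 among dim probes. OAS1, which makes the activator of RNase L, overlapped, with 336.8, 7779 and 7909 in the SFRP1, SFRP2 and SFRP5 clones, 443.8 and 237.8 in the SFRP3 and SFRP4 clones and 5584 in mock cells. Its difference was 3.08 with all 5 clones (limma adjusted p = 0.985) and 4.59 without the SFRP1 clone. Limma called OAS1 without that clone, but it was the clone that overlapped, so the call is no support for a set difference.

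The 3 members with a difference below 0, named after their values were seen, were HERC5, USP18 and IFIT1. IFIT1 binds viral RNA and read 6818, 35912 and 10974 in the SFRP1, SFRP2 and SFRP5 clones, 3099 and 73762 in the SFRP3 and SFRP4 clones and 61013 in mock cells. The SFRP3 and SFRP4 clones were the lowest and highest of the 6 arrays there. HERC5 differed by -0.35, USP18 by -0.13 and IFIT1 by -0.12, and without the SFRP4 clone all 3 were above 0, at 0.25, 0.14 and 2.16.

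Chemokine, cytokine and NF-kappaB target genes had higher set means in the SFRP1/2/5 clones for 23 of 28 kept members, where 53% of all kept genes did. Of the 28, 7 were higher in SFRP1/2/5 without overlap and 0 in SFRP3/4, against 10.5% and 8.95% of all kept genes, and the median was 0.53, from 0.47 without the SFRP4 clone to 0.62 without the SFRP1 clone. Limma called none. IL32, an inflammatory cytokine, read 644.2, 1451 and 1399 in the SFRP1, SFRP2 and SFRP5 clones, 236.5 and 254.2 in the SFRP3 and SFRP4 clones and 466.1 in mock cells. Its 3 other probes differed by 1.91, 1.59 and 1.34 beside 2.15. CCL8, a monocyte chemokine, read 1025, 677.6 and 615.2 in the SFRP1, SFRP2 and SFRP5 clones, 222.8 and 218.6 in the SFRP3 and SFRP4 clones and 393.8 in mock cells. Mock cells lay between the sets for both. IL32 and CCL8 passed the filter only through the SFRP1/2/5 set, where they were high, so their counts are no support for that direction. IL18 and C3 differed by -2.0 and -1.93, the IL18 difference through the SFRP4 clone, at 2663 against 153.0 to 202.6 in the other 4 clones.

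**Figure D3:**
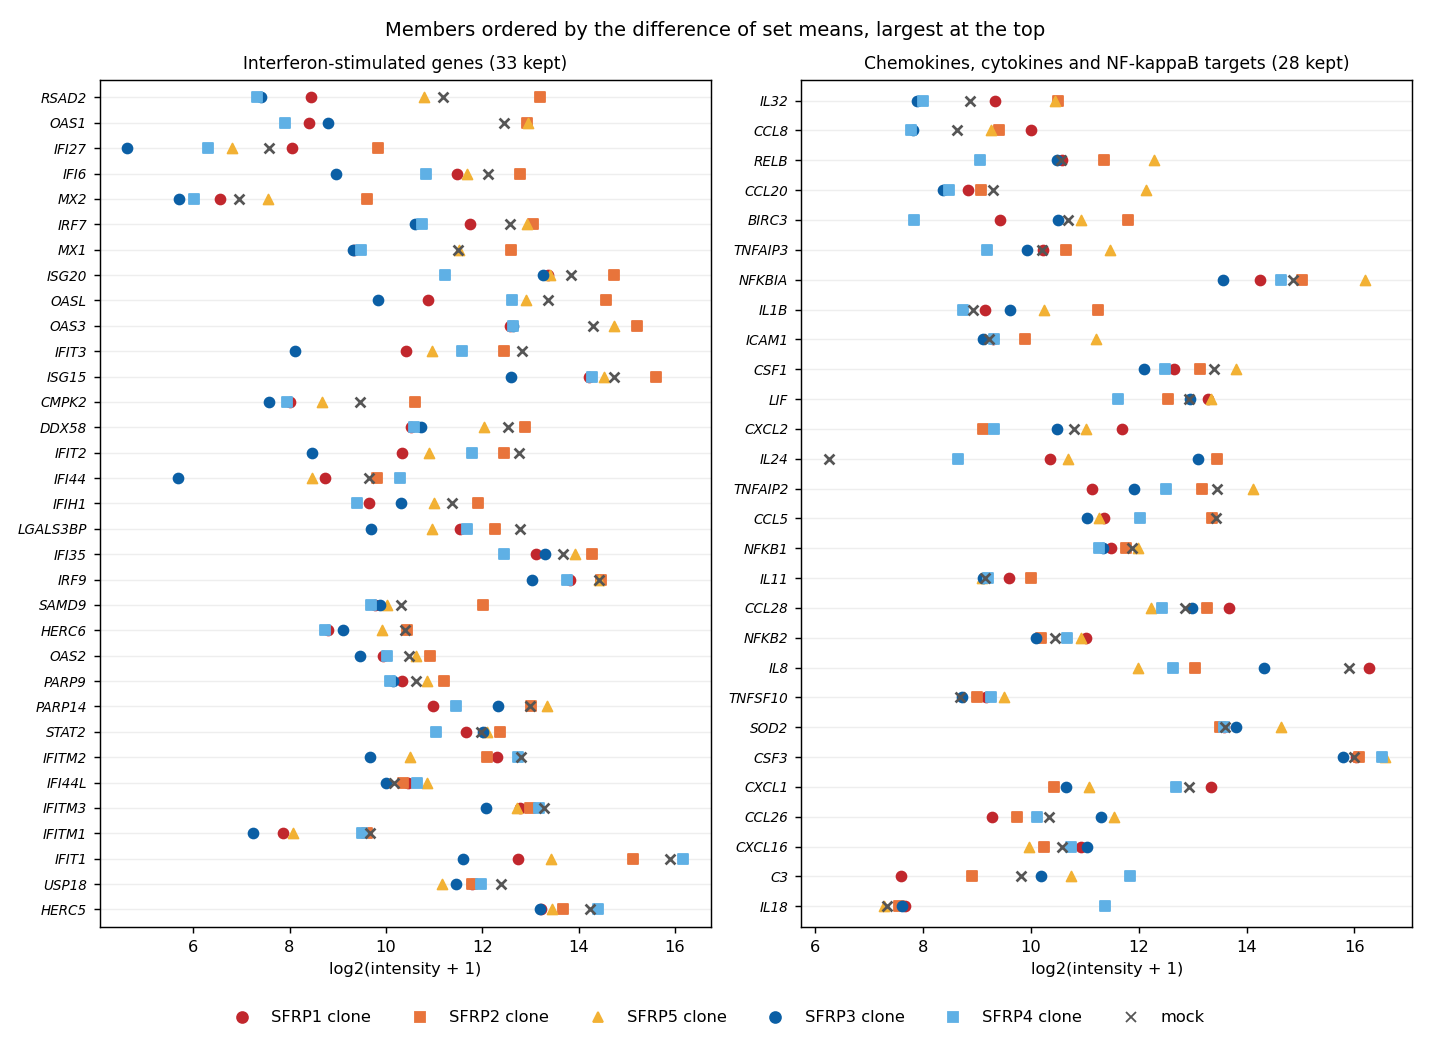
Points are the log2(intensity + 1) of each array for the 33 kept interferon-stimulated genes on the left and the 28 kept chemokine, cytokine and NF-kappaB target genes on the right, ordered by the difference of set means, with colors by clone and a cross for mock cells. The red, orange and yellow points all lie to the right of both blue points for 9 of the 33 genes on the left, RSAD2 among them but not OAS1 just below it, and for 7 of the 28 on the right, and toward the bottom IFIT1 and IL18 are highest in the SFRP4 clone.

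The kinase upstream of noncanonical NF-kappaB signaling, MAP3K14 (NIK), read 3019, 5064 and 2817 in the SFRP1, SFRP2 and SFRP5 clones, 1347 and 1067 in the SFRP3 and SFRP4 clones and 1215 in mock cells. Mock cells were within the SFRP3/4 values. RELB, the factor that this kinase's pathway activates, differed by 1.63. Immediate early and ERK feedback genes had a median of 0.54 over 26 kept members, with 5 higher in SFRP1/2/5 and 1 higher in SFRP3/4 without overlap, against 10.5% and 8.95% of all kept genes. FOSL1, an AP-1 subunit, read 8395, 15293 and 15219 in the SFRP1, SFRP2 and SFRP5 clones, 7316 and 2543 in the SFRP3 and SFRP4 clones and 6979 in mock cells. That list median became 0.09 without the SFRP4 clone and 0.94 without the SFRP3 clone.

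The other genes higher in the SFRP1/2/5 clones had varied functions. MDGA2, a membrane-anchored adhesion protein of synapses, read 1347, 1166 and 1887 in the SFRP1, SFRP2 and SFRP5 clones, 347.5 and 386.7 in the SFRP3 and SFRP4 clones and 348.7 in mock cells. Its sets were far apart, mock cells matched the SFRP3/4 set, and a dimmer second MDGA2 probe differed by 2.31 beside 1.97. DHRS3, a retinaldehyde reductase, read 15299, 13794 and 17772 in the SFRP1, SFRP2 and SFRP5 clones, 6486 and 5255 in the SFRP3 and SFRP4 clones and 16548 in mock cells. SLC38A9, the lysosomal arginine sensor of mTORC1, read 1147, 1180.2 and 1242 in the SFRP1, SFRP2 and SFRP5 clones, 490.5 and 293.8 in the SFRP3 and SFRP4 clones and 1168 in mock cells. For DHRS3 and SLC38A9 mock cells lay within the SFRP1/2/5 values. NHS, a regulator of actin remodeling, read 747.0, 1110.2 and 446.0 in the SFRP1, SFRP2 and SFRP5 clones, 112.8 and 184.5 in the SFRP3 and SFRP4 clones and 66.7 in mock cells. REG3G, an antibacterial lectin, read 2113, 2045 and 1799 in the SFRP1, SFRP2 and SFRP5 clones, 614.3 and 881.4 in the SFRP3 and SFRP4 clones and 647.5 in mock cells. Mock cells were below both sets for NHS and within the SFRP3/4 values for REG3G, and the differences were 2.31 and 1.43.

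Among genes just under the separation rule, BTBD11, now ABTB3, read 404.3, 1512 and 1271 in the SFRP1, SFRP2 and SFRP5 clones, 205.4 and 159.9 in the SFRP3 and SFRP4 clones and 918.2 in mock cells. On the other side HLA-DMA, a chaperone of class II antigen loading, read 575.6, 461.3 and 350.5 in the SFRP1, SFRP2 and SFRP5 clones, 1151 and 3184 in the SFRP3 and SFRP4 clones and 2153 in mock cells. MAT1A, an S-adenosylmethionine synthetase, read 226.1, 180.5 and 183.4 in the SFRP1, SFRP2 and SFRP5 clones, 446.5 and 1202 in the SFRP3 and SFRP4 clones and 322.3 in mock cells. The sets did not overlap for these 3, and the SFRP3 and SFRP4 values lay far apart for HLA-DMA and MAT1A. CYP39A1, an oxysterol hydroxylase, read 641.2, 478.0 and 988.5 in the SFRP1, SFRP2 and SFRP5 clones, 2044 and 1914 in the SFRP3 and SFRP4 clones and 295.1 in mock cells, with mock cells below all 5 clones.

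Set against mock, neither set was the one that stood apart throughout. Over the 27 separated genes, mock cells were nearer the SFRP1/2/5 mean for 11 and nearer the SFRP3/4 mean for 16. Mock lay within the SFRP1/2/5 values for 7, within the SFRP3/4 values for 7, between the sets for 9, above both for 2, SOX4 and AGR2, and below both for 2, NHS and CNTN4.

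The other lists had medians nearer that of all genes, apart from the cancer-testis antigen and fibroblast marker lists, as the plot of list medians shows. The shares of all kept genes without overlap, 10.5% higher in SFRP1/2/5 and 8.95% higher in SFRP3/4, apply to each count here. Cancer-testis antigen genes had a median of -0.49 over 9 kept members, 0 of them above 0, with 0 and 2 without overlap, and the median ran from -0.96 without the SFRP4 clone to -0.19 without the SFRP3 clone. Oxidative phosphorylation subunits had a median of -0.15 over 63 kept members, with 3 and 7. The share higher in SFRP1/2/5 was below that of all kept genes, and the share higher in SFRP3/4 was near it. Of the 63 differences, 16 were above 0, where 53% of those of all kept genes were. Cholesterol and fatty acid synthesis genes had a median of -0.17 over 29, with 1 and 5, and mitosis genes -0.10 over 44, with 2 and 4. Both medians changed sign without the SFRP5 clone, to 0.02 and 0.05. Of the 39 lists, 18 kept 1 sign under both other scalings and with each clone left out, among them the interferon, chemokine and NF-kappaB, keratin, immediate early, Wnt antagonist, cancer-testis and oxidative phosphorylation lists.

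**Figure D4:**
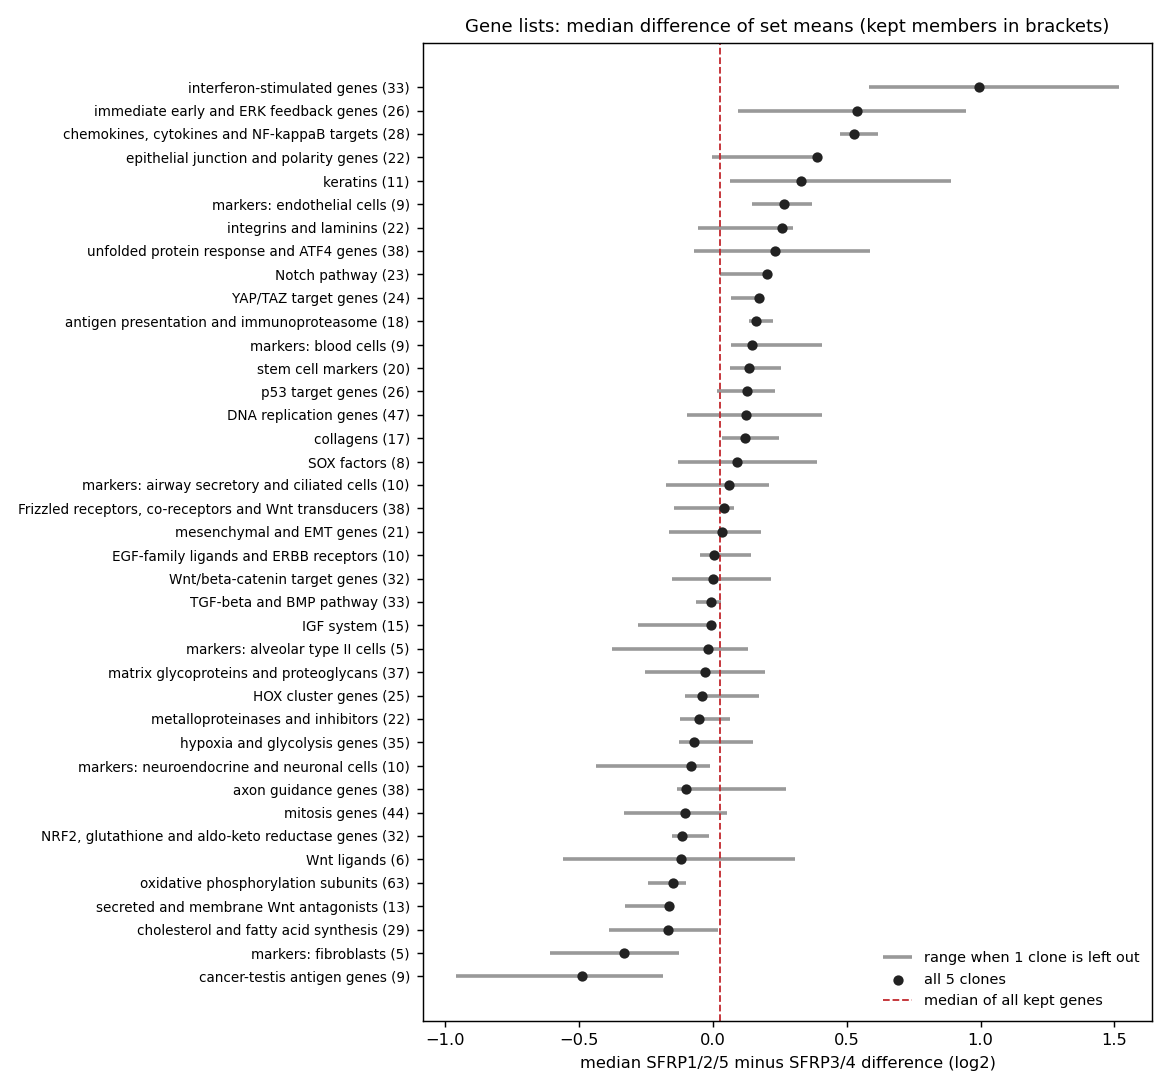
For each of 39 gene lists the point is the median SFRP1/2/5 minus SFRP3/4 difference in log2 over its kept members, the grey bar is the range when 1 clone is left out at a time, and the dashed line is the median of all kept genes at 0.03. Interferon-stimulated genes are highest at 0.99 and cancer-testis antigen genes lowest at -0.49, and the chemokine, cytokine and NF-kappaB list has a short bar, from 0.47 to 0.62.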

How the data were processed

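RNA of 6 A549 cultures was hybridised to 1-colour human arrays labelled with Cy5, per the labels. The authors deposited 1 processed intensity per probe and array, on a linear scale with a few values below 0 on the SFRP4 array. No source used here states the scanner software, the background correction or the scaling. Values under 0 were set to 0 and log2(intensity + 1) was taken, with no further scaling. Of 31741 probes, 24740 had 1 gene symbol in the platform annotation, 977 several and 6024 none. The probe with the brightest mean over the 5 clones stood for each gene. Genes were kept where the brightest clone reached the median of the 5 arrays.

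Clone sets were compared with limma 3.58.1 (R 4.3.3, lmFit and eBayes, two-sided, Benjamini-Hochberg over all kept genes, 3 residual degrees of freedom) and, without a test, by separation and by mean difference, with Python 3.11.15. The fit was tested on simulated data. Named genes were those separated by at least 1 log2 unit, those called by limma or with the lowest p, per list the 4 members or fewer that differed most, the SFRP genes, and the 3 genes per direction just below the separation threshold. PSMB4, RPS28, CCND1, AXIN2, ZNRF3, RELB, SDC1, KRT8, SFTPC, PTPRC, HERC5, USP18 and IFIT1 lie outside this rule and were chosen after their values were seen. The clone sets, members and lists were chosen with earlier results of these data known, and lists are described by counts and medians. Alternatives were other scalings, pseudocounts, floors, filters, probe rules and each clone left out. Promoter windows come from RefSeq, with 26 of the 27 separated genes found (IRF7 was not).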

Additional observations from a re-analysis of the deposited data

How the results depend on the processing

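No paired analysis was possible because each clone had 1 array and all carry the same replicate number. Of the 27 separated genes, 9 were separated under the main setting and all 8 alternatives that kept the 5 clones (CD44, MDGA2, SLC38A9, DHRS3, CLDN10, SOX4, FAM46C, SYCE1L and AMOT). No difference of these 27 was reversed by an alternative. Of 34 other named genes that were followed across the settings, 7 were reversed, each only with a clone left out. Their ranges over the clones left out, from the lowest to the highest difference, were -2.41 to 2.16 for IFIT1, -0.42 to 0.32 for FRZB, -0.32 to 1.1 for KRT8, -0.40 to 0.14 for USP18, -0.58 to 0.99 for SFRP1, -0.16 to 16.5 for RPS28 and -0.96 to 0.25 for HERC5, with 1 end of each range without SFRP3 and the other without SFRP4. Limma called 1 gene, 2 with an intensity trend (EID2 and CLDN10), 0 with the filter on the mean, and 2 to 29 with a clone left out, 29 without SFRP3, when the SFRP4 array stood alone for its set and was assumed to vary like the other. Without SFRP3, CLDN10, GATM, RCAN2, PSMB4, RPS28, SDC1 and IL18 were called as well. With no filter 67 genes were separated, 45 of them higher in SFRP1/2/5, and 484 had a mean at least 1 log2 unit higher in SFRP1/2/5. With the filter on the mean 14 were separated, 6 of them higher in SFRP3/4, and 193 had a mean at least 1 higher in SFRP3/4. The 13 separated genes lost there fell below that filter. They had passed the main filter only through the set where they were high. So had some genes that stayed, CLDN10, SOX4, MDGA2 and SLC38A9 of the 9 above among them. With median centring 23 were separated higher in SFRP3/4. Leaving out 1 clone gave 54 to 689 separated genes, 20 to 399 higher in SFRP1/2/5 and 34 to 290 higher in SFRP3/4, and means at least 1 apart for 211 to 904 higher in SFRP1/2/5 and 324 to 780 higher in SFRP3/4. Each highest count came without SFRP3, and fewer arrays make separation easier. The list medians with a clone left out were added after seeing the data. With 1 array per clone, precision is limited by the number of arrays.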

Other observations

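Among 2749 kept probes with no symbol or with several, 5 were separated by at least 1 log2 unit higher in the SFRP1/2/5 clones and 4 higher in the SFRP3/4 clones. Of the 5, 2 matched the chemokine genes CCL3, CCL3L1 and CCL3L3 together. The first read 130.2, 847.0 and 268.0 in the SFRP1, SFRP2 and SFRP5 clones, 52.3 and 51.9 in the SFRP3 and SFRP4 clones and 141.0 in mock cells. The second read 173.3, 1203 and 372.2 in the SFRP1, SFRP2 and SFRP5 clones, 69.7 and 79.3 in the SFRP3 and SFRP4 clones and 195.5 in mock cells. Both lay close together for SFRP3 and SFRP4, at values near the 10th percentile of their arrays. Which of the 3 gene copies the signal came from cannot be told apart.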
